A study of Mus musculus with 6 samples.

Results

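Complex I, the NADH:ubiquinone oxidoreductase, is the first enzyme of the mitochondrial respiratory chain, and its subunits are encoded in both the nuclear and the mitochondrial genome. The genes described here are the nuclear ones, taken as every row of the count table that is annotated as a protein-coding mouse gene with a symbol of the Ndufa, Ndufb, Ndufc, Ndufs or Ndufv series followed by a number, or Ndufab1; the assembly factors (Ndufaf genes) were left out. The rule found 38 genes among the 49315 rows of the table, and all 38 passed the filter on low counts that left 14508 genes for testing. They code for 36 subunits placed in complex I, and for Ndufa4 and Ndufa4l2, which carry the Nduf name but belong elsewhere. Ndufa4 was named as a complex I protein and later assigned to cytochrome c oxidase (complex IV), and Ndufa4l2 is its paralog. Another 4 rows with Nduf symbols are annotated as processed pseudogenes and were not counted as members, and Ndufb1-ps, the mouse locus of the remaining membrane subunit, was not analysed here.

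The enzyme takes electrons from NADH in a hydrophilic arm that stands in the mitochondrial matrix and passes them along iron-sulfur clusters to ubiquinone, while a membrane arm pumps protons. The N module at the tip of the matrix arm oxidises NADH, the Q module below it reduces ubiquinone, and the proximal and distal membrane modules carry the proton channels. Heart muscle is dense in mitochondria and draws most of its ATP from this chain.

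Heart RNA of mice of the C57BL/6 strain was sequenced in 6 libraries. Of these, 3 were from mice whose Arrdc4 gene had been knocked out by CRISPR-Cas9 and 3 from wild-type mice. Each library is called a heart below. Arrdc4 is an alpha-arrestin, an adaptor protein of membrane trafficking and glucose uptake, and the comparison asks what differs in the heart without it. The sources used here do not give age, sex, litter or founder line, nor on which run a library was sequenced. Nothing beyond the labels says that the replicates were separate animals, so p-values measure the spread between these samples. Unless named as reads, counts or TPM, all values of 1 gene are given as CPM, its count scaled to a common, TMM-adjusted library size. Values of different genes are set side by side only per length, as TPM on the principal transcript of each gene.

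Read counts summed to between 31529317 and 41036626 per knockout library and to between 29974501 and 37518160 per wild-type library. Arrdc4 had 0.117, 0.0345 and 0.0524 CPM in the knockout hearts, against 11.04, 8.18 and 8.39 CPM in the wild-type hearts, which matches the labels (log2 fold change -6.93, SE 0.45, adjusted p = 0.00226, edgeR's quasi-likelihood test). Between 21.8% and 27.7% of a library's reads fell on the mitochondrial genome. Heart muscle markers such as Myh6, Tnnt2 and Myl2 were among the abundant transcripts in every library, and the skeletal muscle myosins Myh1, Myh2 and Myh4 had between 0 and 2 counts. Of the other skeletal muscle markers listed, Tnnt3 had 3 to 10 counts, but Acta1 had 1482 to 20444 and Ckm 75257 to 95982. A pair of libraries stood apart from the other 4, knockout heart 2 and wild-type heart 3. Set against each other they gave a chi-square per degree of freedom of 7.89, against 26.8 to 180 for every other pair, which is still above sampling noise, so no library was treated as a duplicate. Results are therefore given with and without these libraries.

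Promoters of 33 of the 38 genes were found in RefSeq's table on GRCm38.p6, as windows of 300 bases with 250 before the start of transcription and 50 after it; Ndufa2, Ndufa4l2, Ndufb9 and Ndufs1 were among those with no entry. Motifs of factors known from work on nuclear respiratory genes were searched on both strands, and a gene counted once if any of its windows held the letters. The half-site pair of NRF1, GCGCNNGCG, was in 13 of the 33 genes (39.4%), against 13.5% of all 27025 genes with a window. The YY1 sequence AAGATGGCG was in 5 (15.2%), against 1.64% of all genes. The Sp1 GC box GGGCGG was in 15 (45.5%) and 38.2%, the ETS core CCGGAAG in 4 (12.1%) and 9.93%, and the ERR half-site AAGGTCA in 3 (9.09%) and 5.38%. A match describes the letters only; NRF1 matches on the 2 strands overlap each other, and an NRF1 match can overlap a GC box.

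Windows of 4 genes are shown in full, 5′ to 3′ on the strand of the gene, with every motif match in capitals. Ndufs6 (chr13:73328433-73328732, minus strand) and Ndufs7 (chr10:80249199-80249498, plus strand) are the genes with both an NRF1 and a YY1 match. In each the YY1 letters lie close to the end of the window, past RefSeq's start of transcription. In Ndufs7 the NRF1 letters follow directly and lie past that start as well, while in Ndufs6 they lie before it. These positions hold for RefSeq's start only. The GENCODE gene spans begin further upstream, at 80249121 for Ndufs7 and 73328542 for Ndufs6. Against those, the whole Ndufs7 window and the NRF1 letters of Ndufs6 lie inside the gene. Ndufb4 (chr16:37654319-37654618, minus strand) has the most kinds of motif, with 3 stretches of NRF1 letters, a GC box on the opposite strand and an ERR half-site. Ndufa10 (chr1:92473709-92474008, minus strand) is shown because its transcript varied least among the 6 hearts, and it has GC boxes on the opposite strand and no other match.
Ndufs6: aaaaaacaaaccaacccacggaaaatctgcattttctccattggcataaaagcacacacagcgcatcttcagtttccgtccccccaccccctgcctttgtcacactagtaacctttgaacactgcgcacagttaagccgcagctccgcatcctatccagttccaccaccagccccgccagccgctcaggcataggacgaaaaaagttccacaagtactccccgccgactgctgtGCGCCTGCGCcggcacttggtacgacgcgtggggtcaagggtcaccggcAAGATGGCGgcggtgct
Ndufs7: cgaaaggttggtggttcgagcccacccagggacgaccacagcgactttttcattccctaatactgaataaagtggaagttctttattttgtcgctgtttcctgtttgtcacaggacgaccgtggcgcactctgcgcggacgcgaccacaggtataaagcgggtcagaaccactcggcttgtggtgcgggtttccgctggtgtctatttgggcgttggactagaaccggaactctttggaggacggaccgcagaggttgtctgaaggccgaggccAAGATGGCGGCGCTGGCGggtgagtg
Ndufb4: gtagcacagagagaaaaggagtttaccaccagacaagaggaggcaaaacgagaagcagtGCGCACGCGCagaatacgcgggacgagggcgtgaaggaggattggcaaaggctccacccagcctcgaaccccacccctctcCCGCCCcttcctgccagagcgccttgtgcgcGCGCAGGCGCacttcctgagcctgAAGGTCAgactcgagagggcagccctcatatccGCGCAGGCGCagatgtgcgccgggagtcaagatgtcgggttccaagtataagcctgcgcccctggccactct
Ndufa10: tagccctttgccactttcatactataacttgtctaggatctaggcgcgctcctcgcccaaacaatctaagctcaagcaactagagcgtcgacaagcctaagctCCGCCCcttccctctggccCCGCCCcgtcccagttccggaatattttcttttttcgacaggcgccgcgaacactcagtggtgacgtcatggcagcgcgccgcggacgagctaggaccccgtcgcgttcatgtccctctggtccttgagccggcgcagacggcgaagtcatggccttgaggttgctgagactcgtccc

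Every gene of complex I was well expressed in these hearts. Averaged over the 6 libraries, the 36 subunits ran from 200.2 TPM for Ndufb4 to 1540 TPM for Ndufb9, a 7.69-fold spread around a median of 558 TPM. The median was 475 TPM for the 8 genes of the N module, 577 TPM for the 8 of the Q module, 653 TPM for the 9 of the proximal membrane module and 574 TPM for the 10 of the distal module. Subunits that sit in the complex in fixed proportion thus differed several-fold in transcript level. The extremes both lay in the distal membrane module.

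On this length Ndufa4 stood above all 36, at 2788 ± 944 TPM in knockout hearts and 3088 ± 759 TPM in wild-type hearts (SD, n = 3 each). Ndufa4l2 lay far below them, at 22.6 ± 7.14 TPM in knockout hearts and 16.2 ± 2.11 TPM in wild-type hearts (SD, n = 3 each). Some of these levels depend on the length used. On the union of a gene's exons Ndufa4 was at 1358 TPM and Ndufb9 at 1485 TPM, so Ndufa4 was not the highest on that scale. With the longest rather than the shortest principal transcript, Ndufb2 would be at 68.9 TPM in place of 604 TPM, Ndufab1 at 195 TPM in place of 438 TPM and Ndufc1 at 239 TPM in place of 866 TPM. Ndufb2 rather than Ndufb4 would then be the lowest of the 36, and the fold spread given above would be wider.

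**Figure D1:**
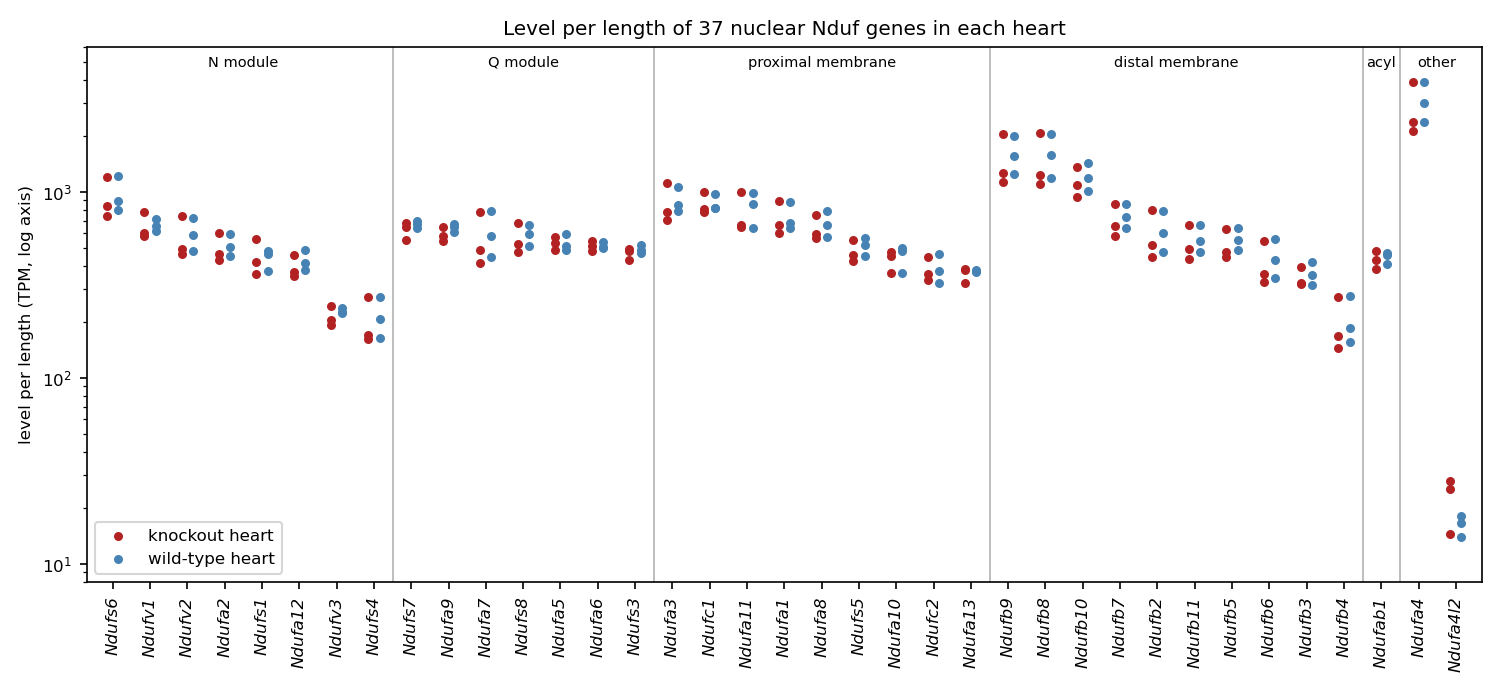
Level per length of 37 of the 38 genes in each heart (TPM, log axis), with the 3 knockout hearts in red to the left and the 3 wild-type hearts in blue to the right; grey lines separate the modules, acyl is Ndufab1 and other is Ndufa4 and Ndufa4l2. The complex I genes lie between Ndufb4 and Ndufb9 by their means, Ndufa4 above them and Ndufa4l2 far below, and the red and blue points of a gene overlap.

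No nuclear subunit of complex I was called different between knockout and wild-type hearts. In edgeR's quasi-likelihood test, 0 of the 38 genes were higher and 0 were lower at an adjusted p under 0.05, where 0.0% of all tested genes were called higher and 0.00689% lower, the 1 gene called being Arrdc4 itself. DESeq2 and limma-voom called 0 of the 38 as well, and gave 0 of them an unadjusted p under 0.05. None had an unadjusted p under 0.05 in edgeR's test, against 1.23% of all tested genes, and the adjusted p of each of the 38 was 1. The log2 fold changes were small and nearly all of 1 sign: 37 of 38 were negative, against 47.7% of all genes, with a median of -0.10 beside 0.01 over all genes and a range of -0.15 to 0.40. The genes moved together from heart to heart, and the sign of their median turned when single libraries were left out, as given with the values by heart.

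The intervals show which sizes of difference remain possible. The 95% interval lay within 2-fold in either direction for 30 of the 38 genes, against 76.4% of all genes. It lay within 1.5-fold for 7 of the 38, against 39.7% of all genes, a lower share than among genes at large. Their median standard error was 0.30 on the log2 scale, against 0.23 for all tested genes.

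**Figure D2:**
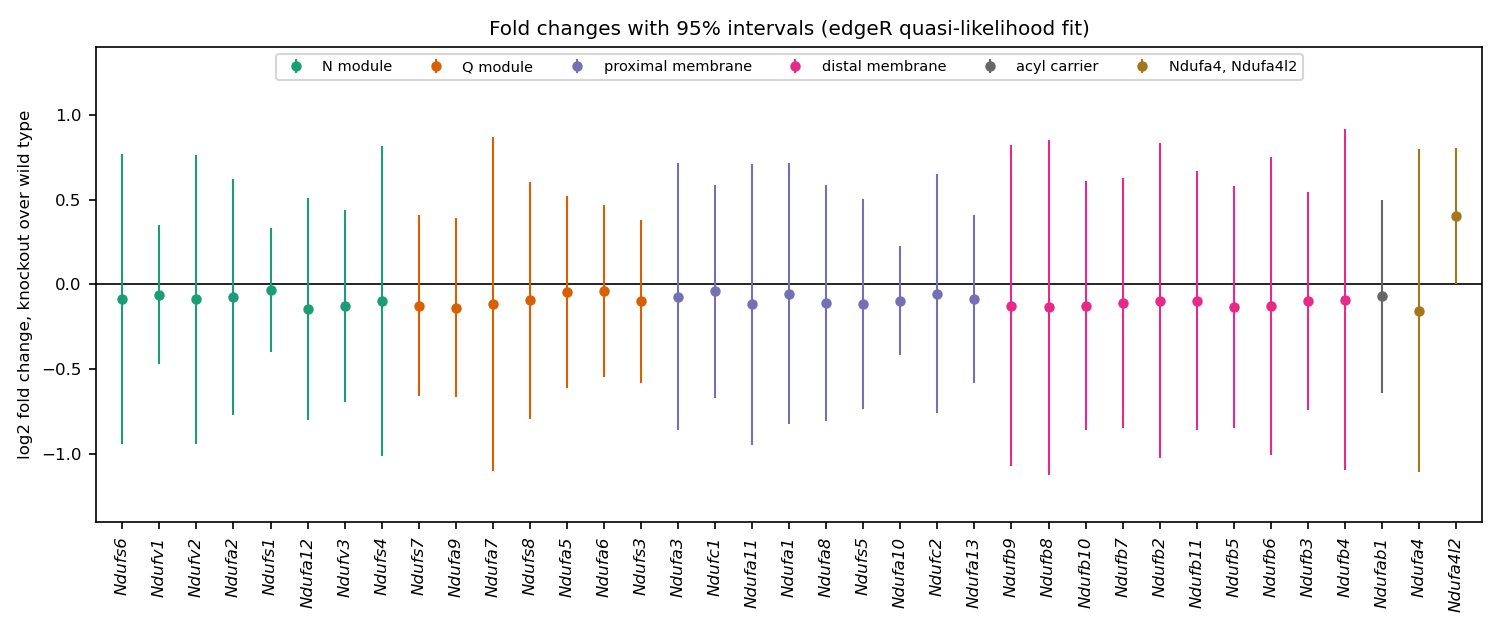
Log2 fold change of 37 of the 38 genes, knockout over wild type, as points with 95% intervals from edgeR's quasi-likelihood fit, coloured by module. Every interval shown includes 0; all points but 1 lie just below it, and the single point above it is Ndufa4l2 at 0.40.

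Of the 7 nuclear core subunits, which have counterparts in the bacterial enzyme, 3 belong to the N module. Ndufv1 (chr19:4007384-4012806, minus strand, 10 exons in the principal transcript) codes for the flavoprotein that binds NADH and FMN. It had 598, 822 and 779 CPM in knockout hearts, against 759, 714 and 821 CPM in wild-type hearts (log2 fold change -0.06, SE 0.17, 95% interval -0.47 to 0.35). Ndufv2 (chr17:66078638-66101559), its iron-sulfur partner, had 490.3, 1041 and 504 CPM in knockout hearts, against 638, 533 and 992 CPM in wild-type hearts (log2 fold change -0.09, SE 0.36). The groups overlapped in both, and Ndufv2 showed the wider swing, with knockout heart 2 and wild-type heart 3 well above the other 4. Ndufs1 (chr1:63143596-63176833, 19 exons), the largest subunit and carrier of several iron-sulfur clusters, had 674, 776 and 869.7 CPM in knockout hearts, against 802, 790.0 and 779 CPM in wild-type hearts (log2 fold change -0.03, SE 0.16). Its wild-type values were nearly equal, at 790.5 ± 11.4 CPM, and the knockout values lay on both sides of them, at 773 ± 97.8 CPM (SD, n = 3 each).

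The remaining N module genes code for supernumerary subunits, which are those outside the core set. Ndufs6, a zinc-binding subunit that joins late in assembly, had 262, 565 and 287 CPM in knockout hearts, against 326, 298 and 557 CPM in wild-type hearts (log2 fold change -0.08, SE 0.36). Ndufa12, which takes the place of the assembly factor Ndufaf2, had 242, 419.9 and 251 CPM in knockout hearts, against 295, 278 and 436 CPM in wild-type hearts (log2 fold change -0.15, SE 0.28). Ndufv3 had 189, 316 and 197 CPM in knockout hearts, against 227, 235 and 304 CPM in wild-type hearts (log2 fold change -0.13, SE 0.24). In all 3 genes the highest heart of each genotype was the same one, knockout heart 2 and wild-type heart 3, and knockout hearts 1 and 3 were the lowest of the 6. The other members of the module, Ndufs4, whose loss in mice gives a Leigh-like encephalopathy, and Ndufa2, had log2 fold changes of -0.10 and -0.07.

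The remaining core subunits belong to the Q module. Ndufs7 (chr10:80249121-80256794), which carries the last iron-sulfur cluster before ubiquinone, had 259.8, 425 and 297 CPM in knockout hearts, against 326, 317 and 428 CPM in wild-type hearts (log2 fold change -0.12, SE 0.23). Knockout heart 2 and wild-type heart 3 were on top. Ndufs3, an early scaffold of assembly, had 279, 425 and 306 CPM in knockout hearts, against 348, 320.3 and 413 CPM in wild-type hearts (log2 fold change -0.10, SE 0.20). Ndufs8, an iron-sulfur subunit, had 230.1, 436 and 246 CPM in knockout hearts, against 298, 259.9 and 416 CPM in wild-type hearts (log2 fold change -0.09, SE 0.30). Ndufa9, a supernumerary subunit that binds NADPH at the junction with the membrane arm, had 489, 775 and 507 CPM in knockout hearts, against 622, 574 and 751 CPM in wild-type hearts (log2 fold change -0.14, SE 0.23). In each of these genes, knockout hearts 1 and 3 were the lowest of the 6 and knockout heart 2 the highest or next to it. Ndufa5, Ndufa6 and Ndufa7 had log2 fold changes of -0.04, -0.04 and -0.12.

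Proximal membrane genes included the member that varied least. Ndufa10 (chr1), a subunit related to nucleoside kinases, had 567, 607 and 583 CPM in knockout hearts, against 624, 657 and 597 CPM in wild-type hearts (log2 fold change -0.10, SE 0.14, 95% interval -0.42 to 0.23). Knockout heart 2 and wild-type heart 3 were not its highest hearts, and only knockout heart 2 overlapped the wild-type values. Ndufa13, also known as Grim-19 and described in cell death as well as in complex I, had 252, 396 and 287 CPM in knockout hearts, against 299.9, 307 and 384 CPM in wild-type hearts (log2 fold change -0.08, SE 0.21). Ndufs5, an intermembrane-space subunit, had 139, 239 and 146 CPM in knockout hearts, against 176, 155 and 237 CPM in wild-type hearts (log2 fold change -0.12, SE 0.26). Ndufa1, one of the pair of X-linked members with Ndufb11, had 156, 309 and 169 CPM in knockout hearts, against 184, 175 and 299.5 CPM in wild-type hearts (log2 fold change -0.05, SE 0.33). These last 3 genes again had knockout heart 2 and wild-type heart 3 on top. Ndufa3, Ndufa8, Ndufa11, Ndufc1 and Ndufc2 had log2 fold changes between -0.12 and -0.04.

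The 10 distal membrane genes, all of the Ndufb series, swung most. Ndufb9 (chr15:58933756-58939488), a subunit of the LYR protein family, had 491, 1192 and 536 CPM in knockout hearts, against 708, 574 and 1137 CPM in wild-type hearts (log2 fold change -0.12, SE 0.40, 95% interval -1.07 to 0.82). This made 739.9 ± 392 CPM in knockout hearts and 807 ± 294 CPM in wild-type hearts (SD, n = 3 each), a difference well inside the spread of either genotype. Ndufb10 had 429, 823 and 479 CPM in knockout hearts, against 559, 484 and 844 CPM in wild-type hearts (log2 fold change -0.12, SE 0.31). Ndufb5 had 299, 561 and 310.1 CPM in knockout hearts, against 384, 342 and 558 CPM in wild-type hearts (log2 fold change -0.13, SE 0.30). Ndufb3 had 152, 249 and 149 CPM in knockout hearts, against 174, 157 and 257 CPM in wild-type hearts (log2 fold change -0.10, SE 0.27). It was the 1 complex I gene whose lowest heart was knockout heart 3 rather than knockout heart 1. Ndufb2, Ndufb4, Ndufb6, Ndufb7, Ndufb8 and Ndufb11 had log2 fold changes between -0.14 and -0.09.

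Ndufab1 is the mitochondrial acyl carrier protein, which holds growing fatty acyl chains and is also bound at both arms of complex I. It had 338, 565 and 367 CPM in knockout hearts, against 415, 382 and 536 CPM in wild-type hearts (log2 fold change -0.07, SE 0.24). Ndufa4 (chr6:11900292-11907497), the complex IV protein, had 595, 1445 and 651 CPM in knockout hearts, against 870.1, 706 and 1418 CPM in wild-type hearts (log2 fold change -0.15, SE 0.41). Both had knockout heart 2 and wild-type heart 3 on top and knockout heart 1 lowest, as nearly all complex I genes had.

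Ndufa4l2 was the 1 gene of the 38 with a positive log2 fold change. Its product is known as a target of the hypoxia-inducible factor HIF-1 that lowers complex I activity, and in many tissues its transcript marks pericytes. Ndufa4l2 (chr10:127514967-127517154, plus strand, 4 exons) had 16.2, 11.2 and 14.3 CPM in knockout hearts, from 696, 324 and 546 reads, against 10.9, 10.2 and 10.5 CPM in wild-type hearts, from 344, 382 and 352 reads. All 3 knockout values lay above all 3 wild-type values, knockout heart 2 by a narrow margin. The log2 fold change was 0.40 (SE 0.17, 95% interval -0.0002 to 0.81), and edgeR's quasi-likelihood test gave an adjusted p of 1, so no change was called. Non-overlapping groups of this direction were found for 2.18% of all genes, and of the opposite direction for 1.9% of all genes; among the 38 genes there were 1 and 0. The separation did not hold on some other scales. With library size alone in place of TMM, with a correction for length, and as TPM (27.9, 14.5 and 25.3 in knockout hearts, against 18.1, 16.6 and 13.95 in wild-type hearts), the groups overlapped. With single hearts left out, the log2 fold change ran from 0.28 without knockout heart 1 to 0.54 without knockout heart 2, and the adjusted p in the same edgeR test was 1 and 0.613 in these fits.

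Markers of smooth muscle and pericytes, 6 of 6 of them tested and none at 0, had a median log2 fold change of 0.24 and summed to 926 to 1106 CPM in knockout hearts and to 998 to 1044 CPM in wild-type hearts. Their part in the Ndufa4l2 values was not tested. In whole-heart RNA, more cells of a type and more RNA per cell cannot be told apart, and the same holds for fewer cells and less RNA.

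The complex I genes varied more between hearts of the same genotype than between the genotypes. On the log2 scale, as the CPM plus 0.5 of a gene minus its mean over the 6 hearts, the median of the 38 genes was -0.37, 0.50 and -0.30 in knockout hearts 1 to 3, and -0.06, -0.23 and 0.49 in wild-type hearts 1 to 3. Knockout heart 2 and wild-type heart 3 were the highest hearts for 35 of the 38 genes, against 29.4% of all genes; the exceptions were Ndufs1, Ndufa10 and Ndufa4l2. Knockout heart 1 was the lowest for 36 of the 38, against 19.3% of all genes. As a share of all reads outside the mitochondrial genome, the 38 genes took 1.58%, 2.57% and 1.67% in knockout hearts and 1.95%, 1.72% and 2.50% in wild-type hearts.

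**Figure D3:**
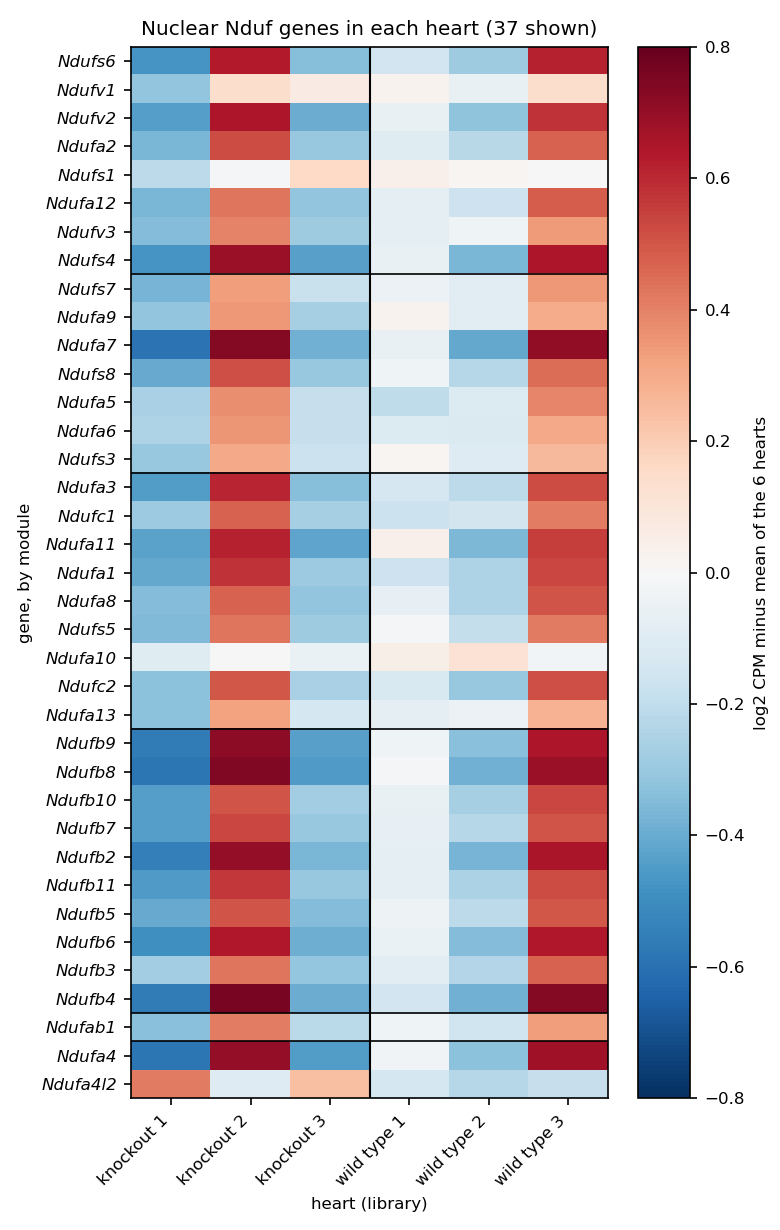
Log2 CPM of 37 of the 38 genes in each heart minus its mean over the 6 hearts, with knockout hearts in the left 3 columns, wild-type hearts in the right 3, and black lines between modules in the order N, Q, proximal, distal, Ndufab1, and Ndufa4 with Ndufa4l2. The red columns are knockout heart 2 and wild-type heart 3; of the genes shown, Ndufs1, Ndufa10 and Ndufa4l2 break the pattern.

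The swing differed among the modules. In the distal membrane genes the median deviation was 0.60 in knockout heart 2 and 0.59 in wild-type heart 3. For the proximal membrane genes it was 0.47 and 0.50, for the N module 0.48 and 0.48, and for the Q module 0.35 and 0.32, in the same order of hearts. The 7 core subunits had 0.30 and 0.26. From the lowest to the highest heart, single genes spanned 0.21 on the log2 scale for Ndufa10, 0.37 for Ndufs1 and 0.46 for Ndufv1 at the narrow end. At the wide end, Ndufb4 spanned 1.32, Ndufb8 1.32 and Ndufa7 1.32.

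Coding length moved with this swing. These narrow genes have long coding sequences, 1065 bases for Ndufa10, 2181 for Ndufs1 and 1392 for Ndufv1, while most members are short. Ndufv3 and Ndufa9, at 1404 and 1131 bases, are long as well and spanned 0.74 and 0.66. Across the 38 genes, the Spearman correlation of coding length with a gene's deviation was 0.22, -0.37 and 0.26 in knockout hearts 1 to 3, and 0.66, 0.42 and -0.37 in wild-type hearts 1 to 3. Across all 13112 protein-coding genes tested it was 0.41, -0.56 and 0.54 in knockout hearts, and 0.09, 0.49 and -0.58 in wild-type hearts. The correlations are across genes of the same library, which are not independent. Across genes, a shorter coding sequence thus went with a higher relative level in knockout heart 2 and wild-type heart 3, with exceptions. The heart muscle markers were divided, with knockout heart 2 and wild-type heart 3 on top for 5 of 11. Myh6, a long transcript, had 981843, 266032 and 1127520 reads in knockout hearts and 542563, 1008659 and 336457 in wild-type hearts, and Myl2, a short one, had 216692, 343772 and 257835 in knockout hearts and 235048, 228625 and 391965 in wild-type hearts. Actc1, the cardiac actin, followed neither, with 450356, 236839 and 341173 reads in knockout hearts and 287880, 307344 and 316723 in wild-type hearts. The reads of these markers are not scaled to library size. Total counts were 41036626 in knockout heart 1 and 31529317 in knockout heart 2, so differences between libraries in these reads include depth.

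**Figure D4:**
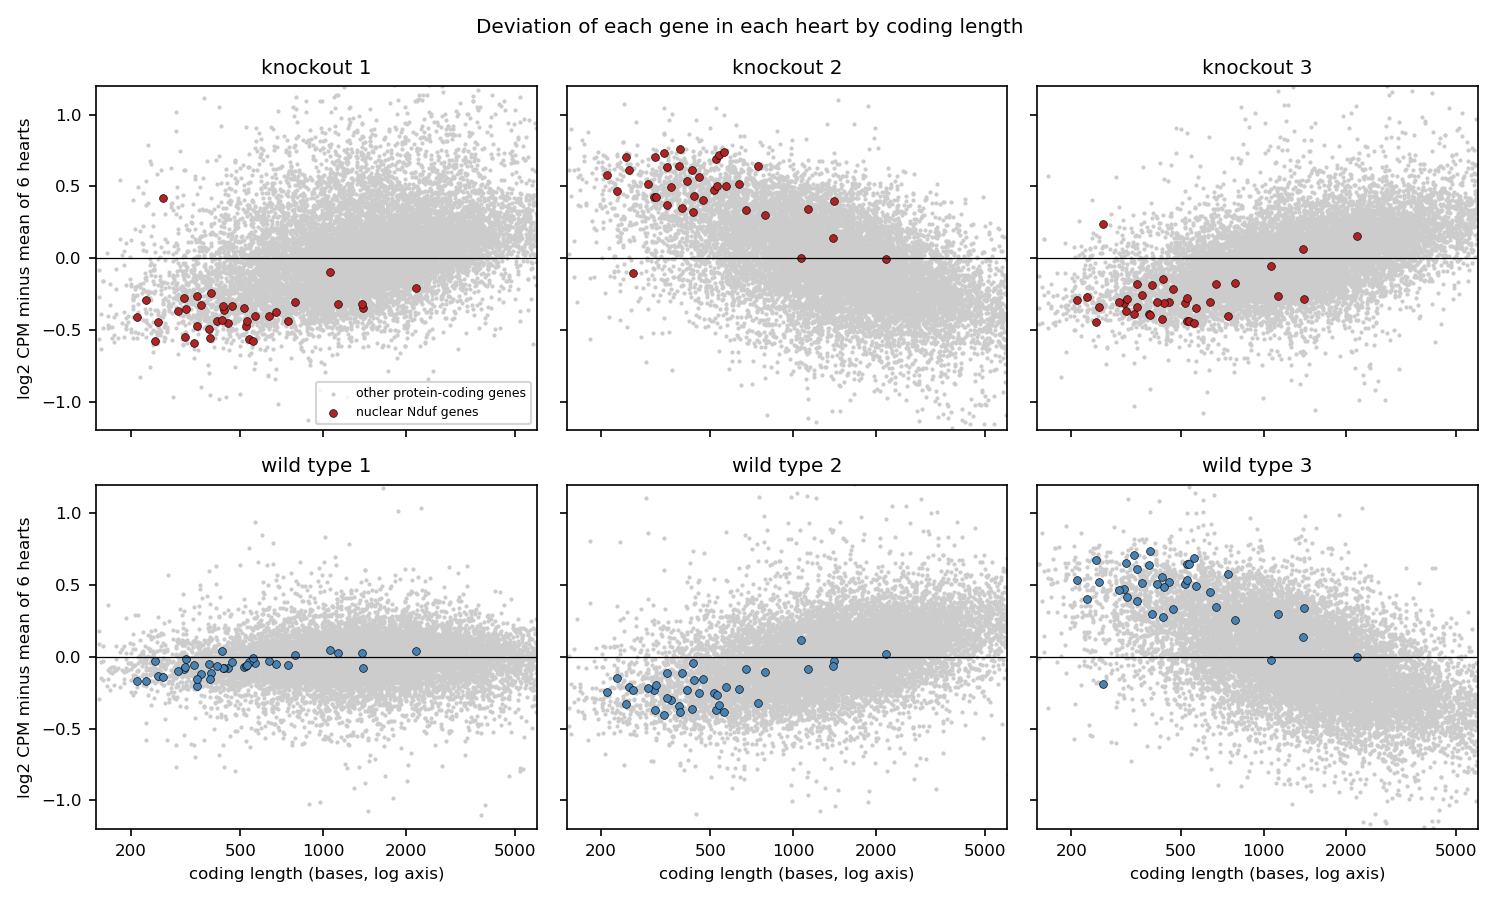
Log2 CPM of each gene minus its mean over the 6 hearts against coding length (bases, log axis), 1 panel per heart, knockout hearts in the upper row and wild-type hearts in the lower; grey points are other protein-coding genes and coloured points 37 of the 38 members. The cloud tilts down in knockout heart 2 and wild-type heart 3 and up in knockout hearts 1 and 3 and wild-type heart 2; the members lie at the short end, and the 1 that lies apart in knockout hearts 1 and 3 is Ndufa4l2.

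Among the shortest genes the members deviated more than all genes did in knockout hearts 1 to 3 and wild-type heart 3, a difference that was not tested. For coding sequences under 450 bases, the median deviation of 20 members was -0.39, 0.53 and -0.31 in knockout hearts, and -0.09, -0.23 and 0.51 in wild-type hearts; for all 908 genes of that length it was -0.23, 0.37 and -0.24 in knockout hearts, and -0.06, -0.22 and 0.36 in wild-type hearts. For the 6 members of 900 bases and more, it was 0.16 in knockout heart 2 and 0.16 in wild-type heart 3, where all 9571 genes of that length had -0.11 and -0.11. After each library was corrected for its trend on coding length, the median of the 38 genes was -0.31, 0.25 and -0.12 in knockout hearts, and -0.02, -0.06 and 0.23 in wild-type hearts, and 32 of the 38 still had knockout heart 2 and wild-type heart 3 on top. The correction reduced the swing and left the median log2 fold change at -0.09.

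Leaving out single libraries showed how far the genotype comparison rests on this swing. The median log2 fold change of the 38 genes was -0.43 without knockout heart 2, 0.07 without knockout heart 1 and 0.04 without knockout heart 3. It was 0.15 without wild-type heart 3, -0.17 without wild-type heart 1 and -0.24 without wild-type heart 2. Its sign thus depended on which heart was left out. Without knockout heart 2, 31 of the 38 genes had both remaining knockout hearts below all wild-type hearts, against 14.3% of all genes, and 1 had them above, Ndufa4l2, against 15.0% of all genes. The 6 that overlapped were Ndufa5, Ndufa7, Ndufb2, Ndufc2, Ndufs1 and Ndufv1. No member was called in that fit by edgeR, the smallest adjusted p being 0.613, although 1126 of 14822 genes had an unadjusted p under 0.05, 1 of them a member, Ndufa4l2.

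Without knockout heart 2 and wild-type heart 3 together, the median was -0.22, and the same counts were found: 31 lower without overlap, against 19.6% of all genes, and 1 higher, against 18.3% of all genes. With 2 hearts left in each group, edgeR called 2 genes in all and no member, and the smallest adjusted p of a member was 0.686; 2 members and 981 of 14610 genes had an unadjusted p under 0.05. The libraries left out were chosen because they stood apart in these same data, so these values describe the remaining hearts and are no independent test.

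The 7 complex I subunits encoded in the mitochondrial genome, the mt-Nd genes, had 4 negative and 3 positive log2 fold changes with a median of -0.00 and 0 called. All 7 were also highest in knockout heart 2 and wild-type heart 3, with a smaller median deviation of 0.22 and 0.16. Reads of the mt-Nd genes per read of the 38 nuclear genes were 9.59, 6.27 and 7.40 in knockout hearts, against 6.75, 8.41 and 6.06 in wild-type hearts, so the groups overlapped in this ratio too. Complex I assembly factors, 19 of 20 tested, had 18 negative log2 fold changes, a median of -0.12 and 0 called.

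The other complexes of oxidative phosphorylation had the same hearts on top. Nuclear genes of complex III (9 of 9), complex IV (13 of 13) and complex V (17 of 17) all had negative log2 fold changes, with medians of -0.11, -0.08 and -0.09, and complex II had 3 of 4 negative with a median of -0.06; 0 were called in any of these lists by edgeR, and 0 of their members had an unadjusted p under 0.05. Their median deviation was 0.37 to 0.65 in knockout heart 2 and 0.35 to 0.57 in wild-type heart 3. A list of 11 genes for other mitochondrial proteins had a median of -0.07 in knockout heart 2 and -0.00 in wild-type heart 3, over members that went both ways: 5 of the 11 had these hearts on top, against 29.4% of all genes. The 11 regulators of respiratory genes, such as the PGC-1 coactivators and their partner factors, had medians of -0.19 and -0.13 in the same hearts, and 0 were called. These regulators also went both ways, and 2 of the 11 had these hearts on top. Their summed level was highest there, at 557.7 CPM in knockout heart 2 and 569.2 CPM in wild-type heart 3. It was 499.8 to 542.6 CPM in the other hearts.

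Markers of other heart cells also varied with the hearts. Fibroblast markers, 8 of 8 tested and none at 0, had a median deviation of 1.07, -0.97 and 0.68 in knockout hearts and -0.26, 0.25 and -0.89 in wild-type hearts. Their log2 fold changes were positive for 7 of 8, with a median of 0.77, and 0 were called by edgeR. Their summed level ran from 419 to 1241 CPM in knockout hearts and from 503 to 758 CPM in wild-type hearts. Endothelial markers, 7 of 7 tested, lay at -0.65 in knockout heart 2 and -0.36 in wild-type heart 3, and summed to 321 to 750 CPM in knockout hearts and 343 to 685 CPM in wild-type hearts. Epicardial and mesothelial markers, 6 of 6 tested and few in reads, had positive log2 fold changes in 6 of 6, with a median of 1.25 and 0 called. Their median deviation was 1.41, -0.78 and 0.65 in knockout hearts and 0.11, -0.72 and -0.59 in wild-type hearts, and their summed level 5.62 to 35.6 CPM in knockout hearts and 6.87 to 13.1 CPM in wild-type hearts. The median of the 11 heart muscle markers lay between -0.14 and 0.07 in all 6 hearts, over single markers that moved in opposite directions, as Myh6 and Myl2 did. The part of these cells in the values of the complex I genes was not tested.

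**Figure D5:**
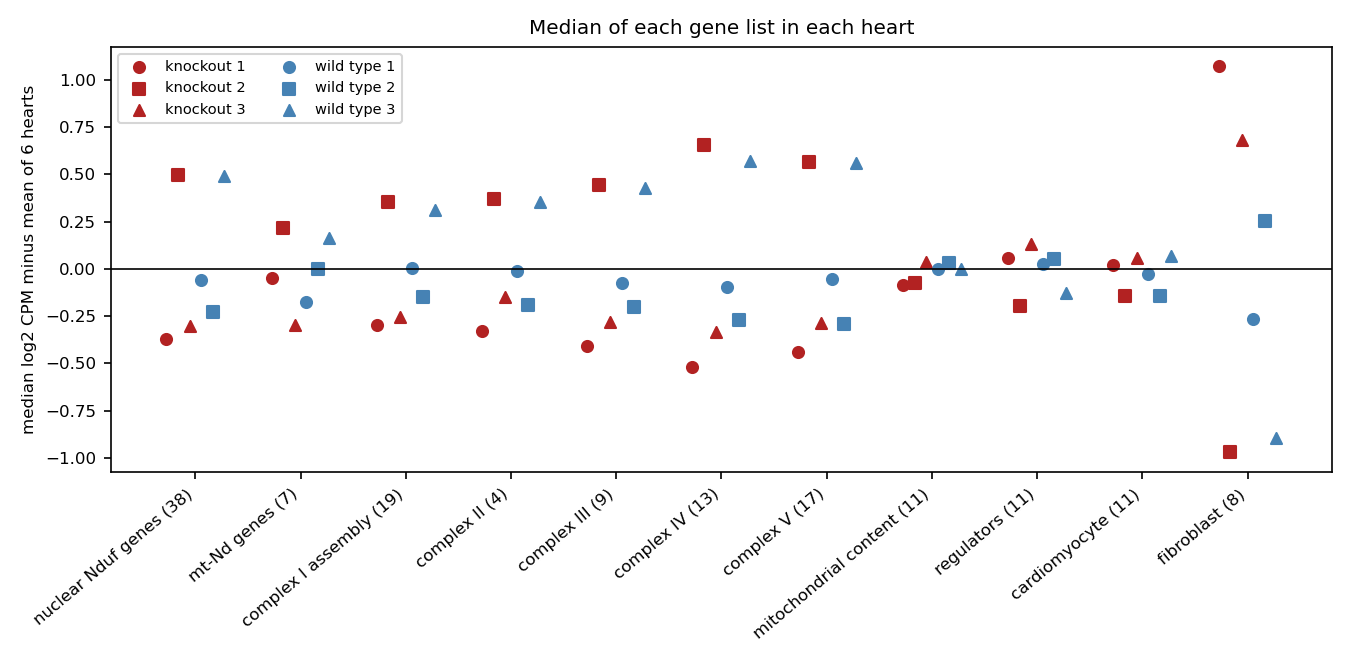
Median over each gene list of log2 CPM minus the gene's mean over the 6 hearts, 1 point per heart, with knockout hearts in red to the left and wild-type hearts in blue to the right within each list; the number of genes tested is in brackets. Knockout heart 2 (red square) and wild-type heart 3 (blue triangle) are the highest in all lists of respiratory chain genes and the lowest in fibroblast markers, and lie near 0 for the mitochondrial content list.

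Over all 38 genes, the summed level per length was 15700, 23320 and 18070 TPM in knockout hearts, against 20060, 16990 and 23680 TPM in wild-type hearts, on the union of each gene's exons. The ratio of the group means, knockout over wild type, was 0.94. It lay between 0.83 without knockout heart 2 and 1.03 without wild-type heart 3, all within the spread of the hearts.

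Reads that match more than 1 gene could touch a few members. Of the 38 genes, 15 share at least 100 bases at 95% identity or more with a transcript of another annotated gene. Counts at those other genes came to 0 to 7.32% of the counts of the member, with a median of 0.262%. For Ndufb3 and Ndufb9 the other gene has no row in the count table. It was entered as 0, also in the median, so its reads are not known. The highest were genes that overlap or adjoin their member, Mrpl47 beside Ndufb5 at 7.32%, and Rbm10 beside Ndufb11 at 6.31%. Such shares are reads assigned to the other gene, not reads that could belong to both. How far those 2 members are affected is not known, since the sources do not say whether strand was used in counting.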

How the data were processed

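Whole-heart RNA was measured in 6 libraries, grouped as knockout or wild type by their titles and genotype labels. Total RNA was column-purified and libraries were prepared with NEBNext Ultra II RNA reagents, as the labels' protocols give it. The authors deposited whole-number read counts per gene, not normalized. Per the submitters' processing notes, the tools were STAR, featureCounts, Subread 1.5.2 and DESeq2, and the build GRCm38.p6, with no role stated. Which annotation release was counted, whether strand was used and how multi-gene reads were treated is not given in the sources used here. Of 49315 identifiers, 49056 matched GENCODE M21 on GRCm38, which gave symbols, positions, exons and lengths.

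Genes were kept by filterByExpr (minimum count 10, minimum total 15), scaled by TMM and tested with edgeR 4.0.16 (R 4.3.3) by its quasi-likelihood F test, two-sided, with Benjamini-Hochberg adjustment over 14508 genes and a threshold of 0.05. The biological coefficient of variation was 24.2%. Fold changes are knockout over wild type; standard errors and 95% intervals come from the same fit. Depth was 29974501 to 41036626 counts per library, and reads carry no molecular identifiers.

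TPM used the shortest best-ranked APPRIS transcript of each gene, and the summed level the union of its exons. Deviations are log2(CPM + 0.5) minus the mean of the gene over the 6 libraries. Near-identical transcripts were found with blastn. Alternatives were DESeq2 1.42.0 and its size factors, limma-voom 3.58.1, library size alone, scaling without the mitochondrial genome, no filter, 1 CPM in 3 libraries, each library left out, knockout replicate 2 and wild-type replicate 3 left out together, a replicate block, and a per-library offset for exon length (spline with 6 degrees of freedom); the offset for coding length was chosen after seeing the data. The members, gene lists and named genes (core subunits, the 3 smallest p and the highest level of each module, Ndufa4, Ndufa4l2 and members without overlap) were chosen with earlier results of these data known. Values of 1 member are not reported here singly; it is included in counts and medians.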

Additional observations from a re-analysis of the deposited data

How the results depend on the processing

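No member was called under any of the other settings run, and the sign of each of the 21 named members was the same under all 11 that kept every library or left out the same pair. The count of members without overlap was 0 with library size alone, with the exon length offset and with the coding length offset. With 1 library left out it ran from 1 to 32. The 32 came without knockout replicate 2, where 15.0% of all genes lay higher and 14.3% lower without overlap. It was also 32 without wild-type replicate 3 and knockout replicate 2 together, where 18.3% of all genes lay higher and 19.6% lower. In all genes, 2 were called without that pair, and 0 to 1 with 1 library left out (0 without knockout replicate 3). The cause was not tested. With 1 library left out, the log2 fold change ran from -0.44 to 0.24 for Ndufa1, -0.45 to 0.086 for Ndufa12, -0.29 to 0.047 for Ndufa13, -0.68 to 0.19 for Ndufa4, -0.34 to 0.087 for Ndufab1, -0.47 to 0.14 for Ndufb10, -0.38 to 0.14 for Ndufb3, -0.49 to 0.10 for Ndufb5, -0.65 to 0.21 for Ndufb9, -0.12 to 0.058 for Ndufs1, -0.30 to 0.019 for Ndufs3, -0.41 to 0.077 for Ndufs5, -0.52 to 0.25 for Ndufs6, -0.36 to 0.026 for Ndufs7, -0.45 to 0.12 for Ndufs8, -0.15 to 0.065 for Ndufv1, -0.54 to 0.21 for Ndufv2 and -0.41 to 0.018 for Ndufv3. The sign was kept by Ndufa9 (-0.38 to -0.019), Ndufa10 (-0.13 to -0.064) and Ndufa4l2 (0.28 to 0.54). The summed level ratio ran from 0.83 to 1.03.

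With the replicate number as a block, 0 genes were called in all, 72 had an unadjusted p under 0.05 in edgeR's test, and the median of the members was -0.13. The deviations of same-numbered libraries from their group means had r of 0.22, -0.74 and -0.50 across genes. Those of knockout replicate 2 and wild-type replicate 3 had r of 0.77. The swing of that pair enters all these values, so they cannot show whether the numbers mark a litter or a run.

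With 3 hearts per group and this spread, the intervals of 31 of the 38 members reach beyond 1.5-fold in at least 1 direction, so a difference of that size remains possible for them.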
